A study of Mus musculus with 22 samples.

Results

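Voluntary running was compared with no running in the mammary tissue of mice that had received clodronate liposomes, which kill the phagocytic cells that take them up. Of the 22 mice measured, the comparison took in all 10 given clodronate, 5 wheel-running mice and 5 controls kept with the hub of a wheel but no wheel. All were female C57BL/6J mice aged 7 to 8 weeks according to the labels. They had the wheel or the hub for 2 weeks, received clodronate liposomes into a vein 24 hours before engraftment and again at engraftment, and carried 100000 EO771 cells, a luciferase-labelled mammary cancer line from the same strain, in a left mammary fat pad. The tissue was taken 24 hours after the cells were placed, so every sample was a whole piece of fat pad with cancer cells in it. The other 12 mice, 6 wheel-running and 6 control, had the same housing and cells with PBS liposomes, and their values are given only beside those of the clodronate mice. Clodronate reaches phagocytes throughout the body, so the mice model a general loss of these cells and not a loss in the mammary gland alone. Of the 52526 gene symbols listed, the 13445 above 1 CPM (counts scaled to the same total of reads) in at least 5 of the 10 mice were tested.

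The mammary fat pad of a virgin mouse is mostly white adipose tissue, crossed by epithelial ducts and vessels, and the fourth pad holds the inguinal lymph node and lies against skeletal muscle. White adipocytes store triglyceride, and they secrete hormones such as leptin, whose level follows the size of the fat store and falls in fasting. Macrophages of the pad clear debris, take part in vessel growth and present antigen, whereas B and T cells are not phagocytic.

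The genes that stood lowest in the wheel-running mice included several that adipocytes express, of which Lep, Nnat and Sncg are described first. The promoters of these 3 genes are shown as the regulatory sequence of the leading lower genes, while the values, read at the 3′ ends of transcripts, carry no information on start sites. Each is the stretch of 250 bases that ends at the RefSeq start site, read 5′ to 3′ along the gene's own strand, in the mouse build GRCm38.p6, and capitals mark any match on either strand to 1 of 6 motifs searched. Lep lies on the plus strand at chr6:29059971-29060220, Nnat on the plus strand at chr2:157559828-157560077, and Sncg on the minus strand at chr14:34374670-34374919.
Lep: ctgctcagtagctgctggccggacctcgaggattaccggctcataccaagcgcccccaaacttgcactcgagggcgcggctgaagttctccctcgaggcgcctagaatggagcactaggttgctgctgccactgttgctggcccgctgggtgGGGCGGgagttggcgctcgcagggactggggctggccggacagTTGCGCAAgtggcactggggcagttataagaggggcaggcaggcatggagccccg
Nnat: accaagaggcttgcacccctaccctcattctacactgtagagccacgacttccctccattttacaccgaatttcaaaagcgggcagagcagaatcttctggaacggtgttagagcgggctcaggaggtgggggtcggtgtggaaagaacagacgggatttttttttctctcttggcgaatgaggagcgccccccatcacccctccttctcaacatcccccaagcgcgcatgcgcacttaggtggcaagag
Sncg: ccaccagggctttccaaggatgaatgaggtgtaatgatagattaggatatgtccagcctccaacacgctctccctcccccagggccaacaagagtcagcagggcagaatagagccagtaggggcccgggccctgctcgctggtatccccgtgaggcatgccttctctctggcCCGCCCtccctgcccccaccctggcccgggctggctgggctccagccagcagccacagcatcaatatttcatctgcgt
The Lep promoter held the palindrome TTGCGCAA, a form of the site of C/EBP factors, starting 55 bases before the start site, and a GC box (GGGCGG) starting 98 bases before it. The Sncg promoter held a GC box on the opposite strand (CCGCCC), 78 bases before the start, and the Nnat promoter held none of the 6 motifs. Among 27025 promoters of the same length, 0.170% held the C/EBP palindrome, 32.9% the GC box, 34.5% a CCAAT box (CCAAT), 13% a TATA box (TATAAA), 6.05% an E-box (CACGTG) and 1.62% a cAMP response element (TGACGTCA). Each motif was searched on both strands and none of the matches overlapped. A match is a description of the sequence, not of a bound factor. For Sncg the GENCODE annotation used for the gene positions below starts upstream of the RefSeq start, so part of the stretch shown lies inside the gene as placed there.

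With clodronate, the adjusted p of limma was under 0.05 for 0 of the 13445 genes (0% called). Leaving out wheel-running mouse 1 or 2 changed this, with 21 and 82 genes passing (82 being 78 higher and 4 lower), and leaving out any other clodronate mouse did not. At an unadjusted p under 0.05 there were 1362 genes (10.1%), with 880 higher in the wheel-running mice (6.55%) and 482 lower (3.58%). These shares are the background of each list count below at that p in all clodronate mice. With 1 clodronate mouse left out, 560 to 1250 of the 13445 genes were higher at that p and 272 to 682 lower. Those ranges are the background of list counts with 1 mouse left out. Scaled to the reads assigned to genes in place of all reads, 1172 were higher and 304 lower, the median difference of all genes went from 0.00 to 0.06, and 8 of the 45 list medians given below, all close to 0, changed sign. They were those of fatty acid oxidation, the hypoxia reference set, the citric acid cycle, luminal epithelium, endothelium, antioxidant genes, the proteasome and mitochondrial ribosomal proteins. In 101 genes every wheel-running mouse was above every control mouse (0.751% of those tested), and in 91 genes every wheel-running mouse was below every control mouse (0.677%). Of these, 10 higher and 2 lower genes passed the filter only through the group where they were high, so that they could not overlap. For such a gene the exact two-sided permutation test over mice gives p = 0.00794, the smallest that 5 against 5 mice allow. The log2 differences below are of log2(CPM + 1), wheel-running minus control, a scale that understates the change of genes near the deposited minimum of 1 CPM, and adjusted p values are limma's. None of the genes below passed the test across all genes, so "higher" and "lower" give the order of the measured values.

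Libraries of the 10 mice held 13256467 to 20484578 reads, and the depths of wheel-running and control mice overlapped (exact permutation p = 0.873). Reads assigned to genes made up 57.2% to 58.5% in wheel-running mice and 58.7% to 63.0% in controls, with no overlap (exact permutation p = 0.00794). Wheel-running mice 3, 4 and 5 stood apart from the other 7 by genes of lymphocytes and lymph node, with B cell list scores (mean log2(CPM + 1) over the list) of 5.91 to 6.56 against 1.58 to 1.73. With PBS, 1 control mouse (4.91) and 1 wheel-running mouse (5.21) did the same. Results are therefore also given without these 5 mice, a fit that keeps 2 wheel-running mice with clodronate and takes the spread from all 4 groups. Control mouse 1 stood apart by genes of fatty acid synthesis and control mouse 4 by several single genes that adipocytes express. The adipocyte list as a whole did not set control mouse 4 apart (score 9.44, and 9.34 in control mouse 1). Without the 5 lymphocyte-rich mice, 263 genes were higher and 525 lower at an unadjusted p under 0.05, and 0 passed the adjusted p. Of the 880 genes higher in all mice, 130 kept an unadjusted p under 0.05 in the same direction (14.8%, beside 1.96% of all genes). Their sign was kept in 78.0% (44.7% of all genes), and their median difference went from 0.86 to 0.28. Of the 482 lower genes, 128 kept it (26.6%, beside 3.90% of all genes). Here 99.0% kept their sign (55.3% of all genes), and the median went from -0.66 to -0.51. Both fits share the controls and wheel-running mice 1 and 2, so kept signs follow in part from the choice of genes. The medians of 19 of the 45 lists changed sign without these mice, among them lists with large medians in all mice. The labels do not say whether the inguinal lymph node was removed from the tissue, so lymph node in the sample and lymphocytes in the fat pad cannot be told apart.

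**Figure D1:**
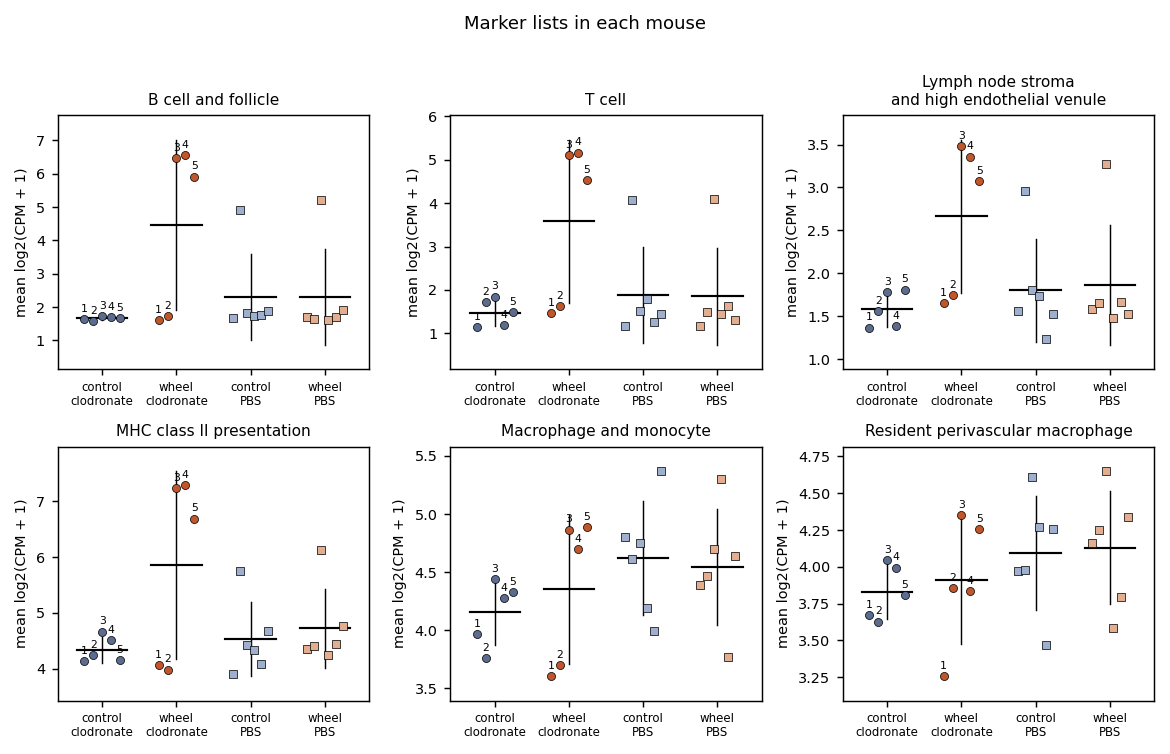
Mean log2(CPM + 1) over the genes of 6 marker lists in each of the 22 mice, with points for mice (circles clodronate, squares PBS, numbers the replicate of clodronate mice), horizontal lines for group means and vertical lines for ± 1 SD. Wheel-running mice 3, 4 and 5 sit at 5.91 to 6.56 for B cell genes while the other clodronate mice sit at 1.58 to 1.73, and the 2 macrophage lists overlap between all groups.

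Leptin, the hormone by which adipocytes signal the size of the fat store, was lower in every wheel-running mouse than in any control. Lep (chr6:29060220-29073877, plus strand) measured 110, 129, 114, 317 and 133 CPM in control mice 1 to 5 and 64.2, 35.3, 56.9, 37.0 and 57.2 CPM in wheel-running mice 1 to 5. The mean was 3.21 times as high in controls. The log2 difference was -1.57 (SE 0.46, adjusted p = 0.266; exact permutation p = 0.00794), lower in 5 of 5 wheel-running mice. Control mouse 4 had by far the highest level of the 10, and without it the difference was -1.30. Without the lymphocyte-rich mice the difference was -1.61, about the same as in all mice.

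Nnat, which encodes neuronatin, a small membrane protein of the endoplasmic reticulum found in adipocytes and neurons, showed the same order. Nnat (chr2:157560078-157562522, plus strand) measured 325, 440, 412, 1053 and 476 CPM in controls and 226, 129, 264, 44.2 and 124 CPM in wheel-running mice. All 5 wheel-running mice were below all controls, with control mouse 4 highest and wheel-running mouse 4 lowest. The log2 difference was -1.88 (SE 0.46, adjusted p = 0.217), or -1.61 without control mouse 4 and -1.53 without the lymphocyte-rich mice.

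Sncg, Timp4 and Rarres2 were chosen after their values were seen, because adipocytes express them. Sncg encodes gamma-synuclein, a protein of sensory neurons and white adipocytes, and lies at chr14:34370274-34374789 on the minus strand. It measured 105, 177, 188, 444 and 169 CPM in controls and 89.9, 38.2, 75.8, 40.0 and 58.1 CPM in wheel-running mice, again with no overlap and a log2 difference of -1.73 (SE 0.48, adjusted p = 0.258). Timp4 encodes an inhibitor of matrix metalloproteinases. It measured 45.3, 37.1, 45.2, 112 and 32.9 CPM in controls and 16.3, 22.7, 26.1, 11.3 and 22.9 CPM in wheel-running mice, so that the groups did not overlap (log2 difference -1.31, adjusted p = 0.299). Rarres2 encodes the adipokine chemerin, a chemoattractant of macrophages and dendritic cells. It measured 102, 81.1, 102, 118 and 103 CPM in controls and 44.3, 56.6, 84.1, 39.3 and 49.9 CPM in wheel-running mice, where wheel-running mouse 3 was above control mouse 2 (log2 difference -0.91, adjusted p = 0.258; exact permutation p = 0.0159).

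Other adipocyte genes did not share this size of difference. Adipoq, the gene of the hormone adiponectin (chosen after its values were seen), measured 865 to 2187 CPM in controls and 1104 to 1599 CPM in wheel-running mice, a log2 difference of -0.14 (adjusted p = 0.910). Fabp4, the fatty acid carrier of fat cells, differed by -0.04, and Cfd, the serine protease adipsin, by 0.21. Of the 18 genes tested in the adipocyte list, 15 were lower, but 2 reached an unadjusted p under 0.05, Lep and Plin4, and the list's median was -0.26 beside 0.00 over all genes, of which 49.9% were lower and 3.58% lower at that p. Plin4, which coats lipid droplets (chosen after its values were seen), measured 588, 491, 451, 1160 and 714 CPM in controls and 523, 407, 351, 243 and 272 CPM in wheel-running mice. Its groups overlapped, with a log2 difference of -0.89 in all mice and -0.47 without the lymphocyte-rich mice. The list's median was -0.02 without those mice. In whole tissue, fewer cells of a type and less RNA per cell cannot be told apart.

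**Figure D2:**
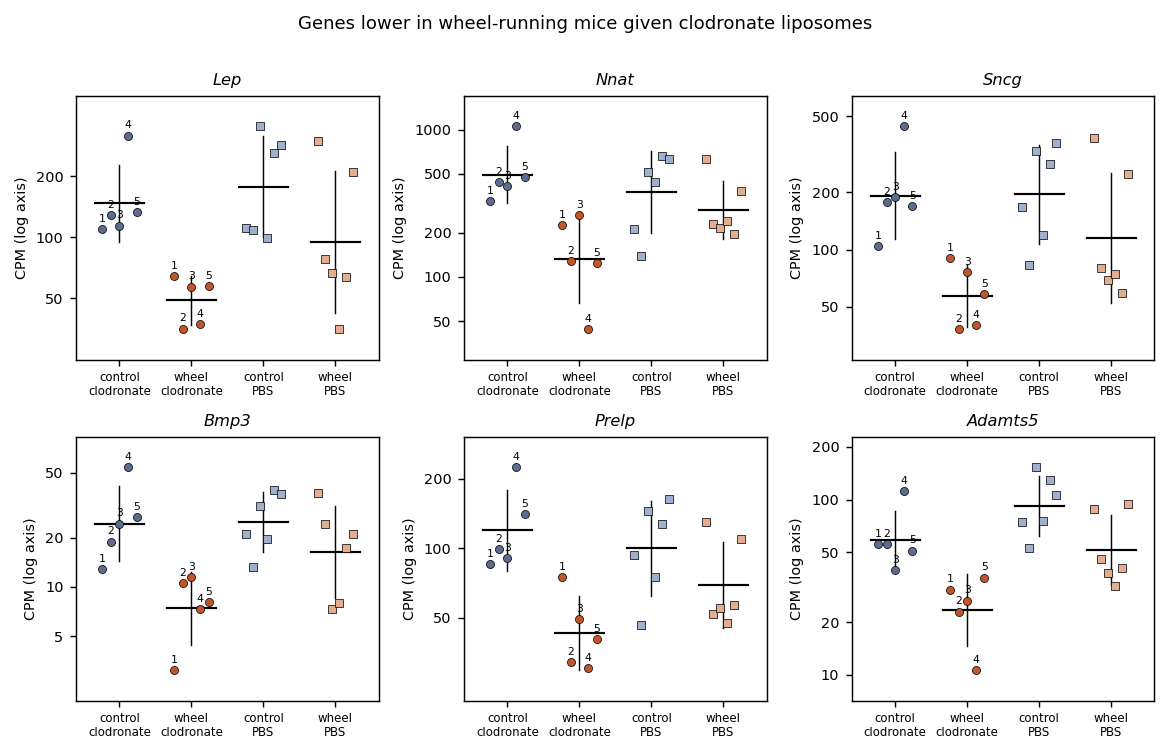
CPM on a log axis for 6 genes in each of the 22 mice, with circles for clodronate and squares for PBS mice, horizontal lines for means of the log values and vertical lines for ± 1 SD, and numbers for the replicate of clodronate mice. In all 6 panels the 5 wheel-running clodronate mice sit below the 5 controls, and with PBS the groups overlap.

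A second set of low genes encodes secreted proteins of the extracellular matrix and a growth factor. Bmp3 (chr5:98854415-98884396), a bone morphogenetic protein that antagonises other family members, measured 12.9, 18.9, 24.3, 53.9 and 26.6 CPM in controls and 3.10, 10.5, 11.5, 7.29 and 8.04 CPM in wheel-running mice. No wheel-running mouse reached the lowest control, and the log2 difference was -1.58 (SE 0.42, adjusted p = 0.253). It was -1.30 without control mouse 4 and -1.89 without the lymphocyte-rich mice. Prelp (chr1:133910304-133921414), a leucine-rich proteoglycan that anchors basement membranes to connective tissue, measured 85.6, 99.3, 90.6, 224 and 141 CPM in controls and 75.1, 32.0, 49.3, 30.2 and 40.5 CPM in wheel-running mice. The groups did not overlap, although wheel-running mouse 1 came close to control mouse 1, and the log2 difference was -1.46 (SE 0.35, adjusted p = 0.204). Adamts5 (chr16:85856173-85901828), a protease that cleaves proteoglycans, measured 55.6, 55.8, 39.8, 112 and 51.1 CPM in controls and 30.6, 23.0, 26.6, 10.6 and 35.9 CPM in wheel-running mice. All wheel-running mice were lower (log2 difference -1.29, SE 0.35, adjusted p = 0.253), and the difference was -1.12 without the lymphocyte-rich mice.

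Fbln2, a fibulin that links elastic fibres and basement membrane, measured 30.8, 23.0, 34.1, 40.8 and 47.8 CPM in controls and 21.5, 21, 20.9, 8.81 and 24.1 CPM in wheel-running mice. Only wheel-running mouse 5 exceeded the lowest control, and the log2 difference was -0.87 (adjusted p = 0.253; exact permutation p = 0.0159). Loxl1, an enzyme that cross-links elastin, measured 35.0, 39.1, 51.2, 56.9 and 41.9 CPM in controls and 38.0, 29.1, 26.7, 19.9 and 28.0 CPM in wheel-running mice, a log2 difference of -0.65 (adjusted p = 0.253). Wheel-running mouse 1 lay within the control range for Loxl1. Sod3, the extracellular superoxide dismutase (chosen after its values were seen), measured 77.9, 76.5, 79.6, 126 and 72.9 CPM in controls and 53.7, 44.0, 50.2, 41.2 and 48.5 CPM in wheel-running mice. Its groups did not overlap (log2 difference -0.83, adjusted p = 0.284). Gsn, the actin-severing protein gelsolin, abundant in fibroblasts, measured 2064, 2267, 2287, 4685 and 2542 CPM in controls and 1872, 2056, 1650, 1112 and 1547 CPM in wheel-running mice. It too did not overlap, by a narrow margin (2064 CPM in control mouse 1, 2056 CPM in wheel-running mouse 2). The log2 difference of -0.71 (adjusted p = 0.377) was -0.43 without the lymphocyte-rich mice. Gsn no longer had an unadjusted p under 0.05 without control mouse 4.

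The collagen list differed less than these single genes. Of its 17 genes tested, 14 were lower (49.9% of all genes) and 3 reached an unadjusted p under 0.05 (3.58% of all genes), Col4a2 (-0.70, adjusted p = 0.307), Col18a1 (-0.55) and Col4a1 (-0.44), which are chains of basement membranes. The median was -0.37, and -0.42 without the lymphocyte-rich mice. The fibril-forming collagen genes Col1a2 (0.09) and Col3a1 (-0.19) differed by less than their SE. Of 16 fibroblast and progenitor genes, 13 were lower and 3 reached an unadjusted p under 0.05, Fbln2, Dpt and Gsn (median -0.19). Of 17 wound matrix genes, 14 were lower and 0 reached it (median -0.24). With 1 mouse left out at a time, 1 to 4 collagen genes were lower at that p, 1 of them without wheel-running mouse 4, and 1 to 4 fibroblast genes, 1 of them without control mouse 4 or wheel-running mouse 4.

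Lower genes outside the matrix included signalling proteins. Gnai1, the alpha subunit of an inhibitory G protein, measured 78.3, 68.8, 89.9, 115 and 127 CPM in controls and 45.4, 68.8, 36.5, 39.4 and 51.4 CPM in wheel-running mice. Only wheel-running mouse 2 touched the control range, and the log2 difference was -0.97 (SE 0.22, adjusted p = 0.204). Tom1l2, a protein of endosomal sorting, measured 33.6, 44.7, 35.5, 34.7 and 40.9 CPM in controls and 18.0, 25.6, 25.6, 23.3 and 27.5 CPM in wheel-running mice, with no overlap and a log2 difference of -0.64 (adjusted p = 0.253). Nfe2l1, a transcription factor that induces proteasome genes, measured 116, 143, 147, 151 and 151 CPM in controls and 110, 115, 96.3, 89.9 and 90.3 CPM in wheel-running mice (log2 difference -0.49, adjusted p = 0.253). Its groups did not overlap, by a narrow margin (116 CPM in control mouse 1, 115 CPM in wheel-running mouse 2). The difference was -0.32 without the lymphocyte-rich mice.

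Gpx7, an oxidoreductase of the endoplasmic reticulum (chosen after its values were seen, because its mean was too low for the rule), measured 6.69, 6.71, 9.14, 5.69 and 8.15 CPM in controls and 2.27, 2.62, 3.40, 1.21 and 3.57 CPM in wheel-running mice. The groups did not overlap, and the log2 difference was -1.22 (adjusted p = 0.204) in all mice and -1.25 without the lymphocyte-rich mice. Acaa2, the thiolase that ends each round of mitochondrial fatty acid oxidation, measured 104, 105, 87.3, 94.7 and 103 CPM in controls and 85.1, 75.8, 76.2, 56.1 and 55.0 CPM in wheel-running mice (log2 difference -0.52, adjusted p = 0.258). All 5 were below the controls, and the difference was -0.29 without the lymphocyte-rich mice. Acadm, a dehydrogenase of medium-chain fatty acids (chosen after its values were seen), differed by -0.38 (adjusted p = 0.338). These 2 were the only genes of the 15 tested in the fatty acid oxidation list at an unadjusted p under 0.05, and the list's median was -0.06.

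Among the higher genes, 4 in which every wheel-running mouse was above every control are given first. Trpv2 (chr11:62574486-62600515, plus strand), a calcium-permeable channel of macrophages and lymphocytes, had the lowest p of all genes. It measured 1.66, 1.77, 1.19, 1.54 and 1.81 CPM in controls and 5.17, 4.09, 14.6, 10.3 and 11.6 CPM in wheel-running mice. The levels of all 5 wheel-running mice were above all controls, the lymphocyte-rich mice 3 to 5 highest, and the log2 difference was 1.85 (SE 0.34, adjusted p = 0.200). Without the lymphocyte-rich mice it was 1.12.

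Arfgef2 (chr2:166805588-166898052) encodes an exchange factor for the small GTPases that direct vesicle budding. It measured 11.5, 12.7, 6.91, 11.5 and 7.24 CPM in controls and 29.5, 23.2, 12.9, 18.3 and 19.1 CPM in wheel-running mice. Wheel-running mice 1 and 2, without the lymphocyte signal, were highest, and the log2 difference was 0.97 (SE 0.23, adjusted p = 0.204) in all mice and 1.34 without the lymphocyte-rich mice. Ccnt1 (chr15:98538689-98570923, minus strand), the cyclin subunit of the kinase that releases paused RNA polymerase II, measured 39.2, 36.4, 37.1, 41.2 and 43.1 CPM in controls and 53.0, 49.5, 66.0, 68.5 and 71.4 CPM in wheel-running mice. Its controls spread little, and the log2 difference was 0.62 (SE 0.13, adjusted p = 0.204), or 0.37 without the lymphocyte-rich mice. Trim12a (chr7:104299894-104315466), a member of the TRIM family of antiviral proteins, measured 8.54, 5.12, 6.84, 9.39 and 8.98 CPM in controls and 15.4, 18.9, 33.1, 40.6 and 22.2 CPM in wheel-running mice. All wheel-running mice were higher, with a log2 difference of 1.56 (SE 0.33, adjusted p = 0.204) and of 1.07 without the lymphocyte-rich mice. Snx29, a sorting nexin, and Trmo, a tRNA methyltransferase, both chosen after their values were seen, were low-level genes with differences of 1.57 and 1.24 in all mice and 1.51 and 1.30 without the lymphocyte-rich mice.

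**Figure D3:**
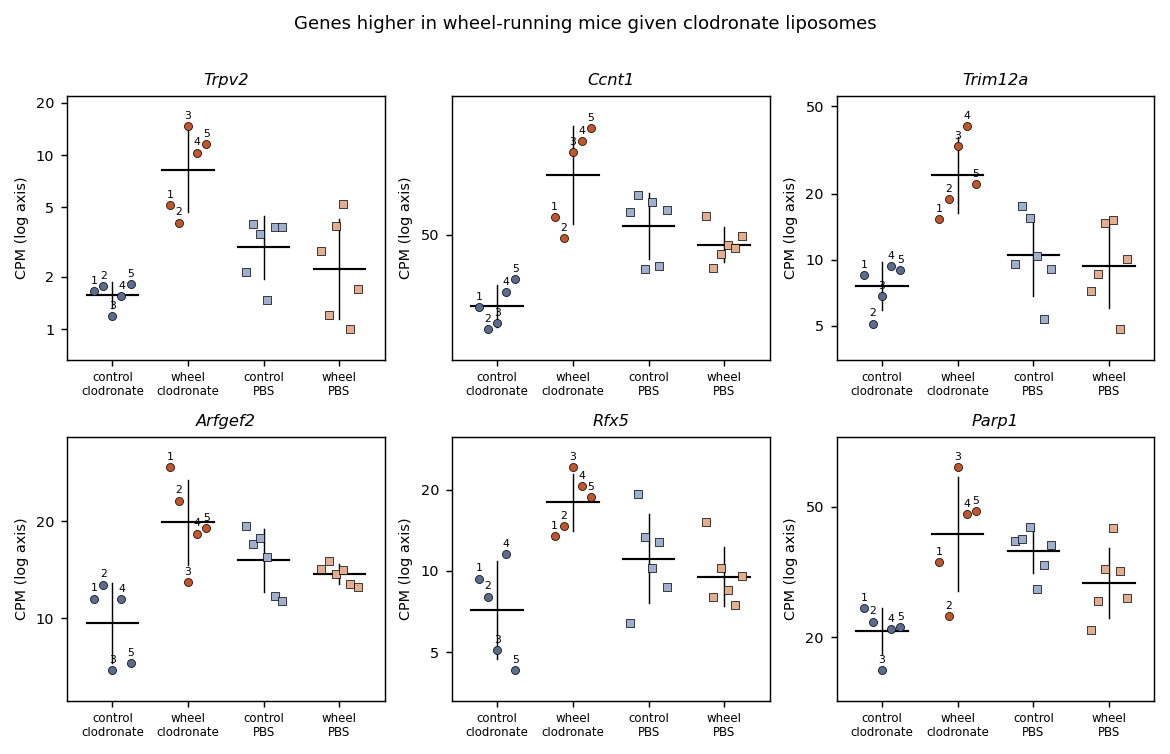
CPM on a log axis for 6 genes in each of the 22 mice, with circles for clodronate and squares for PBS mice, horizontal lines for means of the log values, vertical lines for ± 1 SD and numbers for the replicate of clodronate mice. Wheel-running clodronate mice sit above the controls in all panels but Parp1, where mouse 2 falls inside the control range, and mice 3, 4 and 5 are highest for Trpv2 and Parp1 but not for Arfgef2.

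The remaining higher genes include several that lymphocytes express. In each, as in Trpv2, Ccnt1 and Trim12a, wheel-running mice 3, 4 and 5 were the highest of the 10, and in Rfx5 and Itgb7 mice 1 and 2 were above every control too. Rfx5, a factor that binds promoters of MHC class II genes, measured 9.37, 8.05, 5.09, 11.6 and 4.30 CPM in controls and 13.5, 14.7, 24.2, 20.7 and 18.8 CPM in wheel-running mice, with no overlap (log2 difference 1.2, adjusted p = 0.204, and 0.87 without the lymphocyte-rich mice). Itgb7, an integrin subunit of lymphocytes that home to the gut, measured 1.00, 2.01, 3.49, 3.65 and 1.00 CPM in controls and 7.37, 4.86, 36.8, 37.7 and 23.7 CPM in wheel-running mice (log2 difference 2.56, adjusted p = 0.204). The difference was 1.21 without the lymphocyte-rich mice. Dok3, an adaptor that restrains B cell and myeloid receptors, measured 2.64, 1.16, 1.33, 1.61 and 1.00 CPM in controls and 2.48, 6.72, 36.9, 44.1 and 32.1 CPM in wheel-running mice (2.79, and 1.06 without the lymphocyte-rich mice). Parp1, the enzyme that marks DNA breaks with poly(ADP-ribose), measured 15.9 to 24.6 CPM in controls and 34, 23.2, 66.0, 47.6 and 48.4 CPM in wheel-running mice (0.95, adjusted p = 0.204, and 0.41 without the lymphocyte-rich mice). For Foxp1, a transcription factor of B cells and quiescent T cells, the differences were 0.96 and 0.23, and for Gimap7, a GTPase of lymphocytes, they were 1.82 and 0.45.

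Genes of B and T cells had the largest median differences among the 45 lists, and wheel-running mice 1 and 2 did not share them. Ighm, the heavy chain of IgM, measured 20.4, 12.8, 25.8, 20.3 and 19.2 CPM in controls and 12.9, 22.7, 456, 455 and 299 CPM in wheel-running mice. Ms4a1, which encodes the B cell antigen CD20 (chosen after its values were seen), was at the minimum of 1 CPM in wheel-running mice 1 and 2 and in 4 controls and measured 128, 146 and 90.6 CPM in mice 3, 4 and 5. Trbc2, a constant region of the T cell receptor, measured 2.16 to 28.1 CPM in controls and 10.4, 17.2, 206, 165 and 96.4 CPM in wheel-running mice. Glycam1, a mucin of high endothelial venules in lymph nodes that is also made in milk, measured 1.00 to 2.98 CPM in controls and 1.72, 3.77, 686, 985 and 499 CPM in wheel-running mice. Genes of B cells, T cells and lymph node venules were thus high in the same 3 mice.

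By list, 4 of the 15 B cell genes passed the filter, all 4 higher at an unadjusted p under 0.05 (6.55% of all genes). Their median was 2.79, and -0.15 without the lymphocyte-rich mice. Those mice were singled out by lymphocyte genes, so a fall of the lymphocyte medians without them follows from that choice. Of 20 T cell genes, 11 passed, with 10 higher at an unadjusted p under 0.05 (median 2.24, and -0.01), and 6 without wheel-running mouse 3 or 4. Of 8 MHC class II genes tested 7 were higher at that p (1.26, and -0.31), and 4 without wheel-running mouse 3, 4 or 5. The other 11 B cell genes, Ms4a1 among them, were above 1 CPM in fewer than 5 of the 10 mice and were not tested. NK and cytotoxic genes had 4 of 6 higher at that p (median 0.76, and -0.10). Plasma cell genes had 1 of 5 higher at it (0.37, and 0.10) and lymph node stroma genes 2 of 4 (1.02, and 0.46). H2-Aa, a chain of MHC class II, measured 103 to 185 CPM in controls and 147, 124, 972, 928 and 651 CPM in wheel-running mice (log2 difference 1.51, and -0.06 without the lymphocyte-rich mice). Cd74, the invariant chain of MHC class II, showed 1.11 and -0.55. Ccl21a and Ccl19, chemokines of lymph node stroma, were listed at 1 CPM in all 10 mice. Some genes that every cell uses, such as mt-Co2 and mt-Co3, were listed at 1 CPM in all 10 mice as well, so a gene at the minimum cannot be told from one whose reads were not counted.

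Macrophage genes, the targets of the treatment, were measured in all 10 mice, and their summed levels overlapped between wheel-running mice and controls. The summed level of the 16 macrophage and monocyte genes was 331 to 490 CPM in controls and 306 to 956 CPM in wheel-running mice given clodronate, and 350 to 914 CPM and 329 to 849 CPM with PBS, so all 4 groups overlapped. Whether clodronate removed macrophages from the tissue was not tested here. The list's median was 0.12 in all mice and -0.58 without the lymphocyte-rich mice. In that fit 15 of 16 genes were lower (55.3% of all genes), 2 of them at an unadjusted p under 0.05 (3.9% of all genes). It keeps wheel-running mice 1 and 2 only, with list scores of 3.61 and 3.70, just below controls at 3.76 to 4.44. Lyz2, the lysozyme of macrophages and neutrophils, measured 65.1, 72.7, 80.8, 100 and 64.2 CPM in controls and 76.3, 64.0, 334, 276 and 325 CPM in wheel-running mice, and its log2 difference went from 1.17 to -0.11 without the lymphocyte-rich mice. Adgre1, the macrophage antigen F4/80 (chosen after its values were seen), went from -0.22 to -1.08, and Csf1r, the receptor of macrophage growth factor CSF1, from 0.13 to -0.55.

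Of 12 genes of resident perivascular macrophages, 1 had an unadjusted p under 0.05, Pf4 (list median -0.13, and -0.23 without the lymphocyte-rich mice). Pf4, a chemokine of platelets and of resident macrophages, measured 13.5, 20.3, 21.4, 21.5 and 47.8 CPM in controls and 7.58, 11.5, 19.1, 12.3 and 17.3 CPM in wheel-running mice. The ranges overlapped, and the log2 difference was -0.77 (adjusted p = 0.451; exact permutation p = 0.0476) and -1.20 without the lymphocyte-rich mice. The 6 alternative activation genes (median 0.01, and -0.36 without the lymphocyte-rich mice) held 1 gene higher at an unadjusted p under 0.05, and the 6 neutrophil and acute inflammation genes (median -0.22) held 0, with Ly6g and Il6 at 1 CPM in all 10 mice. All 16 interferon-stimulated genes were higher, 2 of them at an unadjusted p under 0.05 (6.55% of all genes). Their median was 0.64, and 0.14 without the lymphocyte-rich mice.

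Genes of fatty acid synthesis varied more between mice of 1 group than between groups. Fasn, the fatty acid synthase, measured 5571, 579, 666, 517 and 947 CPM in controls and 1909, 1601, 582, 3177 and 3067 CPM in wheel-running mice. Control mouse 1 was highest of all, 4 of 5 wheel-running mice were above the other controls, and the log2 difference was 0.81 (adjusted p = 0.619). Acly, which makes cytosolic acetyl-CoA from citrate, measured 687, 88.3, 104, 56.2 and 95.0 CPM in controls and 262, 132, 100, 786 and 595 CPM in wheel-running mice (1.11, adjusted p = 0.554). Scd1, the desaturase that makes oleate, measured 1376 to 5599 CPM in controls and 982 to 4089 CPM in wheel-running mice (-0.10). Of 12 genes of the list, 9 were higher and 0 reached an unadjusted p under 0.05 (median 0.50). Without control mouse 1, 7 of the 12 were higher at an unadjusted p under 0.05 (834 of all 13445 genes), and the median was 0.96. Without wheel-running mouse 3, 4 of the 12 were (560 of all genes).

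**Figure D4:**
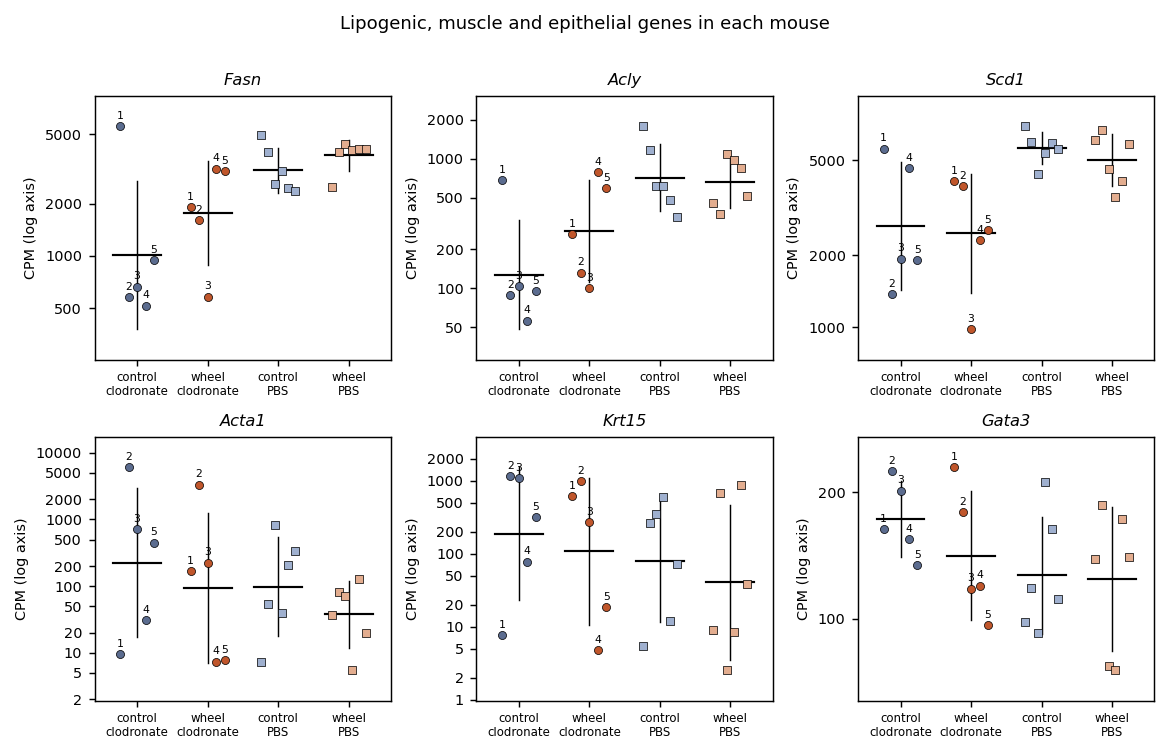
CPM on a log axis for 6 genes of fat synthesis, skeletal muscle and epithelium in each of the 22 mice, with circles for clodronate and squares for PBS mice, horizontal lines for means of the log values, vertical lines for ± 1 SD and numbers for the replicate of clodronate mice. Control mouse 1 is highest for Fasn at 5571 CPM, and Acta1 runs from 7.35 to 6082 CPM within the 10 clodronate mice.

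Of 18 genes of cholesterol synthesis and uptake, 16 were lower (49.9% of all genes), 1 of them at an unadjusted p under 0.05. This was Mvk (-0.68, adjusted p = 0.472), a kinase early in the pathway. The median was -0.49 (-0.16 without the lymphocyte-rich mice). List scores were 4.58 and 4.65 in control mice 2 and 3. The other controls had 3.46 to 3.57, inside the wheel-running range of 3.34 to 3.97. Without control mouse 2 or 3, or wheel-running mouse 1, 0 genes were lower at that p, and 4 were without control mouse 5. Brown and beige fat genes had a median of -0.32 (0.01 without the lymphocyte-rich mice) with 0 of 11 under that p, and Ucp1, the uncoupling protein of brown fat, was above 1 CPM in 1 mouse, control mouse 1 at 7.27 CPM. In glycolysis, Ldhb, a lactate dehydrogenase subunit, was lower (-0.79, adjusted p = 0.415) and Eno1, an enolase whose 3′ end matches 1 other gene, higher (0.66, adjusted p = 0.449), with a median of -0.26 over 17 genes (0.08 without the lymphocyte-rich mice). Medians stood close to 0 for the citric acid cycle (20 genes, -0.07) and the mitochondrially encoded genes (8 genes, -0.10), with 0 genes under that p. That of oxidative phosphorylation was -0.08 over 45 genes (0.07 without the lymphocyte-rich mice). In it 3 genes were lower at that p, beside 3.58% of all genes. With 1 mouse left out at a time, 0 to 8 genes of oxidative phosphorylation were lower at that p, 0 without control mouse 2, 1 without wheel-running mouse 3 and 8 without control mouse 3. Insulin and IGF genes had a median of -0.18 over 18 genes with 1 lower at that p, Grb14 (-0.81), an adaptor that restrains the insulin receptor.

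Hypoxia genes were examined because the study scored a reference set of such genes, drawn from human cancers, in running mice. It reported lower expression of the set in wheel-running mice, from a test of the mean over its genes, and named no liposome. The gene differences and medians below are another measure, and the study's test was not repeated. Of 40 genes of this set tested, 15 were higher and 25 lower, 1 in each direction at an unadjusted p under 0.05. The median was -0.04 with clodronate and -0.19 with PBS. Over all genes it was 0.00 with clodronate, where 49.9% were lower, and -0.10 with PBS, where 65.4% were lower. Of 21 known hypoxia targets, 14 were lower (49.9% of all genes), 3 of them at an unadjusted p under 0.05 (3.58% of all genes). They were Higd1a (-0.59, adjusted p = 0.374), Bnip3 (-0.59, adjusted p = 0.454) and P4ha2 (-0.84, adjusted p = 0.463), the last chosen after its values were seen. Higd1a and Bnip3 encode mitochondrial proteins induced at low oxygen, and P4ha2 a hydroxylase of collagen. Without the lymphocyte-rich mice Higd1a and Bnip3 showed -0.18 and -0.17, and P4ha2 -1.21. The median of the targets was -0.10, and 0 of them reached that p without control mouse 5 or wheel-running mouse 4, 1 without wheel-running mouse 5. Ldha (-0.03), a lactate dehydrogenase subunit, and Pfkfb3 (0.05), a regulator of glycolysis, both hypoxia targets, differed by less than their SE.

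Of 16 VEGF and angiopoietin genes, 3 were lower at an unadjusted p under 0.05 (3.58% of all genes). Only 1 was without control mouse 1, 4 or 5 or wheel-running mouse 3 or 4. Apln, the peptide apelin made by growing vessels and fat cells, measured 6.54, 3.54, 1.00, 9.76 and 9.50 CPM in controls and 1.24, 1.00, 3.46, 1.64 and 1.54 CPM in wheel-running mice. The groups overlapped through control mouse 3, and the log2 difference was -1.17 (adjusted p = 0.353) in all mice and -1.5 without the lymphocyte-rich mice. Angpt1, a ligand that steadies vessels (-0.83, adjusted p = 0.417), and Vegfb, a growth factor tied to fat tissue (-0.43, adjusted p = 0.427), were the other members at that p (median of the list -0.13). Vegfa (-0.10), the main growth factor of vessels, Kdr (0.21), its receptor, and Pecam1 (0.09), an endothelial adhesion protein, differed by less than their SE. Of 18 endothelial genes 0 had an unadjusted p under 0.05 (median -0.05), and of 12 smooth muscle and pericyte genes 1 did, Notch3 (-0.56, adjusted p = 0.417; median -0.21). Angpt1, Vegfb and Vegfa were chosen after their values were seen.

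Cytosolic ribosomal protein genes were higher as a list, and the difference went with the lymphocyte-rich mice. All 73 tested were higher, 34 of them at an unadjusted p under 0.05 beside 6.55% of all genes, with a median of 0.39. That count was 49 with scaling to assigned reads. With 1 mouse left out it was 10 and 12 without wheel-running mice 3 and 4, 18 and 22 without control mice 1 and 4, and 54 and 56 without wheel-running mice 1 and 2. Over all 13445 genes the counts in the same order were 560 and 567, 834 and 893, and 1161 and 1250. Without the lymphocyte-rich mice the median was -0.01. With PBS it was -0.19, with 72 of 73 lower. Over all genes the PBS median was -0.10, and 65.4% were lower. Rpl17, a protein of the large ribosomal subunit, measured 60.4, 88.8, 104, 88.1 and 93.3 CPM in controls and 105, 106, 207, 168 and 144 CPM in wheel-running mice, with no overlap (log2 difference 0.71, adjusted p = 0.258, and 0.30 without the lymphocyte-rich mice). Its 3′ end matches 16 other genes, so its reads may be split. Mitochondrial ribosomal proteins had 6 of 72 genes lower at an unadjusted p under 0.05 (3.58% of all genes), with Mrpl54 at -0.68. Their median was -0.01, and without control mouse 1 the count was 2. Proteasome genes had 3 of 30 lower at that p (1 without control mouse 2 or wheel-running mouse 4), beside the same share of all genes. Psmc3, an ATPase of the 19S cap, was at -0.36, and the median of the proteasome list was -0.06.

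Tissue composition differed widely between mice of the same group. Acta1, skeletal muscle actin, measured 9.57, 6082, 721, 31.0 and 450 CPM in controls and 168, 3330, 224, 7.35 and 7.67 CPM in wheel-running mice. The muscle list thus ran from 287 to 43368 CPM in sum in controls and from 218 to 21213 CPM in wheel-running mice, with a median difference of -0.96 over 23 genes, of which 0 reached an unadjusted p under 0.05. It was 1.18 without the lymphocyte-rich mice, so its direction depended on which mice were kept. Krt15, a keratin of basal epithelium, measured 7.76, 1151, 1087, 78.3 and 316 CPM in controls and 614, 988, 275, 4.80 and 18.6 CPM in wheel-running mice, in an order of mice like that of Acta1. Basal epithelium genes had a median of -0.39 (14 genes, 0.18 without the lymphocyte-rich mice) and luminal epithelium genes of -0.04 (20 genes), both with 0 at an unadjusted p under 0.05. Milk protein genes had 1 of 5 higher at that p, Glycam1 (list median -0.15), with Csn2 and Wap at 1 CPM in all 10 mice. Dividing-cell genes had a median of 0.10 over 20 genes, or -0.53 without the lymphocyte-rich mice. DNA replication genes had a median of 0.21 over 22 genes (-0.22 without those mice). In them 1 gene was higher at that p, Mcm4 (0.82, adjusted p = 0.386), a subunit of the replicative helicase. Hemoglobin genes had a median of 0.04 over 5 genes, with 0 under that p.

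Immediate early genes had 3 of 20 at an unadjusted p under 0.05, Klf2 higher (1.16, adjusted p = 0.258, and 0.42 without the lymphocyte-rich mice), and Nr4a2 and Jun lower (-1.01 and -0.57, both chosen after their values were seen). Klf2 is a transcription factor of resting lymphocytes and endothelium, and Nr4a2 an orphan nuclear receptor induced by cyclic AMP. Nr4a2 was at -1.46 without the lymphocyte-rich mice. The list's median was 0.11. Glucocorticoid-responsive genes were lower in 14 of 16 (49.9% of all genes), with Mt1, a metallothionein, under that p (-0.56, adjusted p = 0.388) and a median of -0.29. Circadian clock genes had 2 of 18 lower at that p, among them Hlf, a transcription factor, at -0.50. Their median was -0.13 (0.18 without the lymphocyte-rich mice). Heat shock genes had 1 of 14 lower at that p, Hspa1b (-0.73, list median -0.12). Unfolded protein genes had 1 of 21 lower at that p, Trib3 (-0.91, list median -0.07), and antioxidant genes 0 of 16 (median -0.04).

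**Figure D5:**
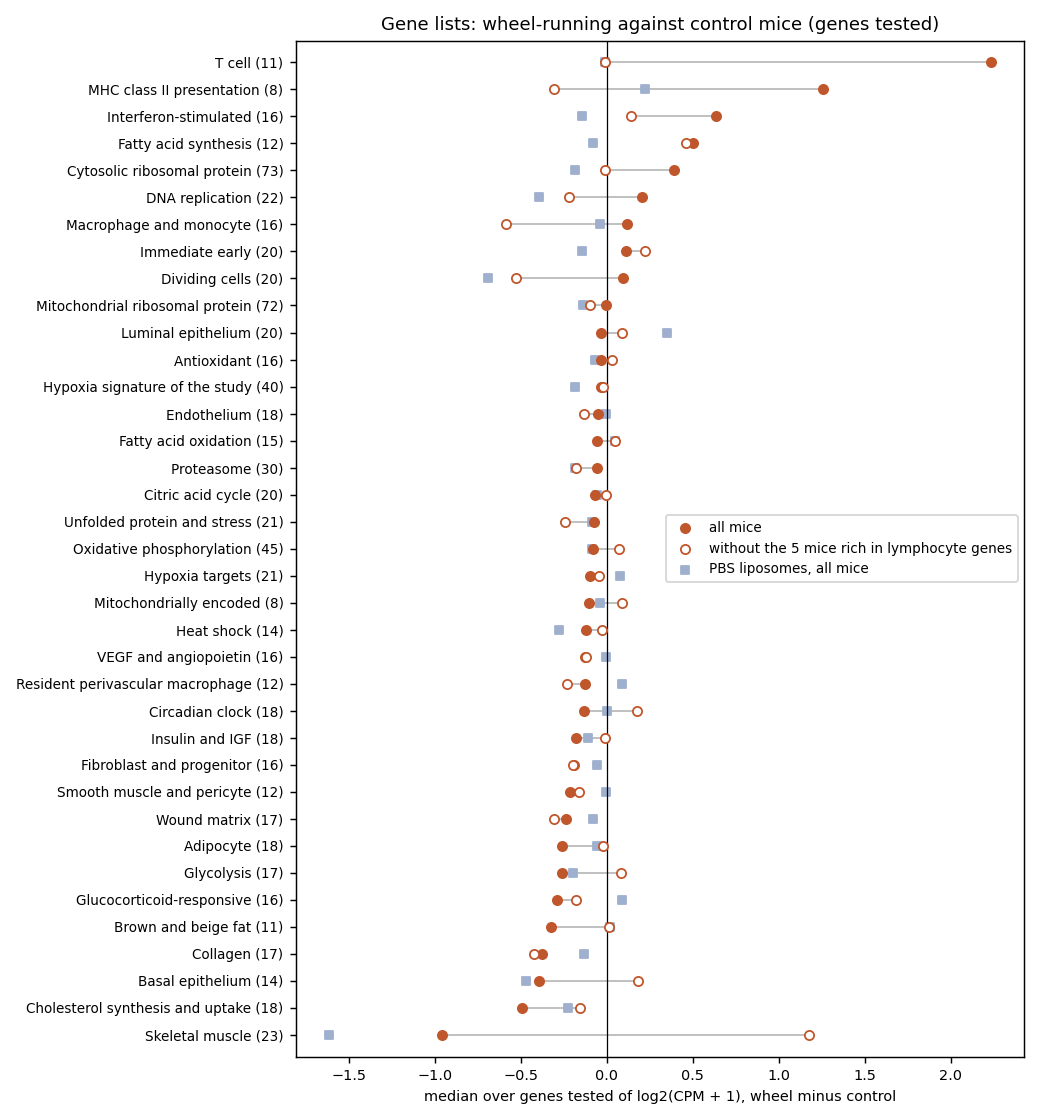
Median over the genes tested of the difference in log2(CPM + 1), wheel-running minus control, for the lists with at least 8 genes tested (number tested in brackets), as filled circles for all clodronate mice, open circles without the 5 lymphocyte-rich mice and squares for PBS mice. T cell, MHC class II and ribosomal lists move from 2.24, 1.26 and 0.39 to near or below 0 without those mice, and skeletal muscle changes sign from -0.96 to 1.18.

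Set beside the PBS mice, the 91 genes that were lower without overlap under clodronate were lower in 72.5% of cases with PBS too, against 65.4% of all genes. Of these 91, 11 were lower at an unadjusted p under 0.05 there (4.38% of all genes). The 101 higher genes were higher with PBS in 30.7% of cases, against 34.6% of all genes, and 2 were higher at that p (0.721% of all genes). With PBS, 0 genes were called and 686 had an unadjusted p under 0.05 (5.1%, with 97 higher, 0.721%, and 589 lower, 4.38%). With upper-quartile scaling, 205 were higher and 286 lower with PBS. The median of all genes was -0.10 with PBS and 0.00 with clodronate, and -0.020 with PBS under that scaling, so the shares of all genes given here rest on the scaling. Lep measured 99.1 to 353 CPM in PBS controls and 35.1 to 297 CPM in wheel-running PBS mice, a log2 difference of -0.90 (adjusted p = 0.963). Lower values with PBS were also measured for Timp4 (-0.84, adjusted p = 0.959), Adamts5 (-0.83, adjusted p = 0.959) and Nr4a2 (-0.74, adjusted p = 0.959), and in each of these 4 genes the PBS groups overlapped and the unadjusted p was under 0.05. For the difference between the 2 liposomes Lep had an adjusted p of 0.861 (limma).

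The test of the difference between the wheel effects under the 2 liposomes called 0 genes, with 998 (7.42%) at an unadjusted p under 0.05, 828 of them higher (6.16%) and 170 lower (1.26%) under clodronate than with PBS. Upper-quartile scaling gave 582 higher and 309 lower. Among genes named here, it had its lowest p for Trpv2, at 2.11 on the log2 scale (adjusted p = 0.535), since Trpv2 showed -0.26 with PBS. Loxl1 showed 0.25 with PBS and a difference of -0.90 (adjusted p = 0.544). Nnat (-0.40 with PBS) was lower by more under clodronate, also at an unadjusted p under 0.05 for the difference. Ccnt1 (-0.09), Trim12a (-0.14) and Arfgef2 (-0.14), higher under clodronate, were slightly lower with PBS.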

How the data were processed

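RNA of mammary tissue with engrafted EO771 cells was sequenced from the 3′ ends of transcripts (QuantSeq 3′ FWD), 1 library per mouse. Per the submitters' processing notes, STAR 2.5.3a and the build GRCm38 were used, and the counting tool and annotation are not given in the sources used here. The deposited signal per gene is in CPM with values below 1 set to 1, and the authors' total includes reads outside genes. Of the values above 1, 100% were whole multiples of what 1 read is worth (tolerance 0.1 read), which gave the depth. At that minimum a gene could have had up to 13 to 20 reads, which cannot be recovered, so count models were not used and precision at low levels is limited.

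Mice were grouped by the labels. Genes were tested on log2(CPM + 1) with limma 3.58.1 in R 4.3.3 (4 group means over 22 mice, variance trend, Benjamini-Hochberg adjustment), and single values by exact two-sided permutation. Nothing in the labels says that mice shared a batch. The members of the comparison and the 45 gene lists were chosen with earlier results of these data known. Named genes were the 10 of lowest p in each direction with a mean of at least 5 CPM and, per list, the 2 of highest mean CPM and the 1 of lowest p, of which those that carried a result are described, and a few genes are not reported here. Named outside this rule, after their values were seen, were Acadm, Adgre1, Adipoq, Angpt1, Col18a1, Col4a1, Csf1r, Dpt, Gpx7, Jun, Ms4a1, Nr4a2, P4ha2, Plin4, Rarres2, Sncg, Snx29, Sod3, Timp4, Trmo, Vegfa, Vegfb and genes listed at the minimum. The alternatives were other pseudocounts, filters and scalings, no variance trend, the lymphocyte score as a covariate, a block for the replicate number, and fits without single mice or the lymphocyte-rich mice. Gene positions are from GENCODE M21 (GRCm38), promoters from RefSeq (GRCm38.p6), and near-identical copies were sought among the last 400 bases of transcripts (blastn 2.17.0, at least 97% identity over 100 bases). Values were tabulated and drawn in Python 3.11.15 with numpy 2.4.6, pandas 2.3.3 and matplotlib 3.10.9. The limma step was tested on simulated data.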

Additional observations from a re-analysis of the deposited data

Results flagged for a closer look

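Single mice stood far from the other 4 of their group, by the gap to the nearest mouse relative to the group's range, in 14 of 262 groups of values examined, where chance alone is expected to give about 1 in 20, or 13.1. All values are log2(CPM + 1), or its mean over a list.

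Control mouse 1 was highest for the fatty acid synthesis list (8.70, next 6.94), Fasn (12.44, next 9.89) and Acly (9.43, next 6.71). It was lowest for the hypoxia target list (4.26, next 4.38) and for Nfe2l1 (6.87, next 7.17). Control mouse 4 was highest for Lep (8.31, next 7.07), Timp4 (6.82, next 5.53), Gsn (12.19, next 11.31), Sod3 (6.99, next 6.33) and Trmo (1.45, next 1.04).

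Control mouse 3 was highest for Gimap7 (1.75, with the other 4 at the minimum). Among wheel-running mice, mouse 1 was highest for the hemoglobin list (9.23, next 8.05), mouse 2 for Acadm (6.87, next 6.69), and mouse 4 lowest for Fbln2 (3.29, next 4.45). The reasons for these single values were not tested.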

How the results depend on the processing

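Genes near the minimum of 1 CPM and groups of 5 mice limit what could be measured, and rescaling to the reads assigned to genes moved the median of all genes from 0.00 to 0.06 on the log2 scale and changed the sign of 8 of 45 list medians, the largest of them 0.067 in size. Without the 5 lymphocyte-rich mice 19 of the 45 changed sign. The largest of them was 2.79 in size, that of the B cell list, whose genes set these mice apart. With no filter on low values, 3 genes passed an adjusted p of 0.05 under clodronate (Ccnt1 and the genes Gm7536 and Pthlh, at the minimum in all 5 controls), and 2 for the difference between liposomes. A minimum shared by all 5 controls hides their spread, so no conclusion is drawn from the adjusted p of Gm7536 and Pthlh. Leaving out 1 clodronate mouse at a time gave 0 to 82 passing genes, the highest without wheel-running mouse 2 and 21 without wheel-running mouse 1, and leaving out any mouse gave 0 for the PBS comparison and for the difference between liposomes.

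Higher genes at an unadjusted p under 0.05, 880 in all mice, numbered 333 with the lymphocyte score as a covariate, 263 without the 5 lymphocyte-rich mice and 560 to 1250 with 1 mouse left out, lowest without wheel-running mouse 3 (560) or 4 (567). Lower genes, 482 in all mice, numbered 304 with rescaling to assigned reads, where 1172 were higher, and 272 to 682 with 1 mouse left out, lowest without wheel-running mouse 4. Higher genes without overlap, 101 in all mice, numbered 158 with that rescaling, 59 at a mean of at least 5 CPM, 421 without the 5 lymphocyte-rich mice and 124 to 328 with 1 mouse left out. Lower genes without overlap, 91 in all mice, numbered 52 with that rescaling, 795 without the 5 mice and 104 to 194 with 1 left out. Fewer mice make an overlap less likely by construction, and the cause of the other shifts was not tested.

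The sign changed without the 5 lymphocyte-rich mice for Cd74 (-0.55), Ighm (-0.16), H2-Aa (-0.064) and Lyz2 (-0.11), and with the covariate for Cd74 (-0.25) and Glycam1 (-0.33). For the other named genes no planned setting changed the sign of a difference at an unadjusted p under 0.05.

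The replicate numbers are shared by different mice, and 3 of 5 same-numbered pairs deviated together (correlation over 0.1), with 2 of 5 wheel-running mice matching their own number best, so the numbers were not taken to pair mice. With the replicate block, 0 genes passed in the clodronate comparison, the PBS comparison and the difference between liposomes, and 834 genes were higher and 489 lower at an unadjusted p under 0.05 in the first. The planned count models of edgeR and DESeq2 were not run, since low reads cannot be recovered.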

Other observations

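Some genes were read in every wheel-running mouse and listed at the minimum of 1 CPM in every control, and they are given here as values chosen after they were seen. Pthlh, which encodes the parathyroid hormone-related peptide of mammary epithelium and breast cancer cells, measured 1.93, 2.18, 1.82, 1.28 and 1.70 CPM in wheel-running mice 1 to 5. Gm7536, a pseudogene whose 3′ end matches 4 other genes, measured 1.93, 2.24, 2.19, 2.25 and 2.5 CPM. Both levels lie close to the minimum, which stands for up to 13 to 20 reads, so the size of these differences is not known.

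Cr2, the complement receptor of follicular dendritic cells and mature B cells, was at 1 CPM in all 5 controls and in wheel-running mice 1 and 2 and measured 101, 120 and 78.0 CPM in mice 3, 4 and 5. Map3k6, a stress-activated kinase, was lower in wheel-running mice by a log2 difference of -1.37 and by -1.56 without the lymphocyte-rich mice, in groups that overlapped.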
